A study of Mus musculus with 18 samples.

Results

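Chemokine receptors and thymic egress genes were followed in sorted mouse thymocytes through 7 genes, chosen by symbol: Ccr7, Ccr9, Cxcr4, Ccr4, Cxcr3, S1pr1 and Klf2. Each had 1 probe among the 46237 on the Illumina mouse BeadChip. Of these 7 genes, 5 were detected on at least 3 of 18 arrays, at a detection p under 0.05, and were tested. The probes of Cxcr3 and S1pr1 were detected on none.

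CD4 single-positive (CD4 SP), CD8 single-positive (CD8 SP) and CD4 CD8 double-positive (DP) thymocytes had been sorted by flow cytometry from thymi of 4 to 6 week old mice, and 200 ng of total RNA was labelled for each array. In the conditional knock-out (cKO, labelled FoxN1-Gpr177), a FoxN1-Cre transgene removed exon 3 of Gpr177, now named Wls, a gene needed to secrete WNT proteins. The comparison mice (wt) were C57Bl/6N, a strain the labels give for both genotypes. The FoxN1 promoter is active in thymic epithelial cells, so the thymocytes measured here should carry an intact gene and their Wls levels do not check the genotype labels. The 6 groups were cKO CD4 SP, wt CD4 SP, cKO CD8 SP, wt CD8 SP, cKO DP and wt DP, with 3 arrays each. Nothing in the labels says that the 3 arrays of a group came from separate mice, so p-values measure the spread between these samples, which may be technical.

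Thymocytes move through the thymus on chemokine gradients. DP cells develop in the cortex, which makes the CXCR4 ligand CXCL12 and the CCR9 ligand CCL25. After positive selection they turn on CCR7 and CCR4, whose ligands are made in the medulla, and mature SP cells leave the thymus towards sphingosine 1-phosphate in the blood through the receptor S1PR1, under control of the transcription factor KLF2. CXCR3 is the receptor of the interferon-induced chemokines CXCL9 and CXCL10 on activated and innate-like T cells.

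On the GRCm38.p6 assembly the genes lie at chr11:99144199-99155077 (Ccr7), chr9:123767211-123783457 (Ccr9), chr1:128588199-128592299 (Cxcr4), chr9:114490316-114505476 (Ccr4), chrX:101731535-101734147 (Cxcr3), chr3:115710433-115715055 (S1pr1) and chr8:72319062-72321654 (Klf2). The 250 bases before the annotated start are shown for 4 of them, from RefSeq, 5′ to 3′ on the strand of the gene. Cxcr4 and Ccr9 stand for the receptors highest in DP cells and Klf2 for the factor detected on SP arrays only. Ccr4 stands for receptors with their highest mean in CD4 SP cells, though it was called only against CD8 SP cells and overlapped DP cells. Ccr7 also had its highest mean in CD4 SP cells, but no promoter window was available for Ccr7 or S1pr1. Capitals mark letters of 4 motifs searched on both strands: CACCC (KLF), TGTTTAC (FOXO), CTTTGAT or CTTTGAA (TCF/LEF) and TGTGGT (RUNX).
Cxcr4: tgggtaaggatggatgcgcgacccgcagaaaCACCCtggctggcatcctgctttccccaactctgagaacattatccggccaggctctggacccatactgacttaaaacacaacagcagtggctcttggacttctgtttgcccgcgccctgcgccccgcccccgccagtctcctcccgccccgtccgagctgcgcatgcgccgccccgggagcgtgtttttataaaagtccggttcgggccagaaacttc
Ccr9: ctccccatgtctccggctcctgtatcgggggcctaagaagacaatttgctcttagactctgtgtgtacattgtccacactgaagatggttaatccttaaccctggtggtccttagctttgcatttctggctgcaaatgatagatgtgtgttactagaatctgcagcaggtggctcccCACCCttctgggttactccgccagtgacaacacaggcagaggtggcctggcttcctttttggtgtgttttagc
Klf2: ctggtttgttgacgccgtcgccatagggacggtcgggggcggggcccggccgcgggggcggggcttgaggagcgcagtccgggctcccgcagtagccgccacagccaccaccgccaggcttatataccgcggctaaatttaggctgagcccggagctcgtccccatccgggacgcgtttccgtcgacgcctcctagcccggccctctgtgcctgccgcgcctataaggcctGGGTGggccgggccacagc
Ccr4: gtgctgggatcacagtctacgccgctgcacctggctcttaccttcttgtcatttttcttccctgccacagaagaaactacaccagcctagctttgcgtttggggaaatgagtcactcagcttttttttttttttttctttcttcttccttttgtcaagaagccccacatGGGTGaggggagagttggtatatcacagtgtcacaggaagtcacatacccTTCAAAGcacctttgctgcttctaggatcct
These windows are chr1:128592300-128592549 on the minus strand (Cxcr4), chr9:123766961-123767210 on the plus strand (Ccr9), chr8:72318812-72319061 on the plus strand (Klf2) and chr9:114496545-114496794 on the minus strand (Ccr4). The Ccr4 window lies inside the span given above, before a start within it. KLF letters were found once in each of the 4 windows, and they occur in 52% of 32851 mouse promoter windows of the same length. TCF/LEF letters, present in 7.48% of all windows, were found once, 31 bases before that start of Ccr4. No FOXO letters (3.17% of windows) or RUNX letters (14% of windows) were in these 4. The Cxcr4 window also held TATAAA, at 30 bases before the start, which is in 12.4% of windows. A match is a description of the sequence and was not tested as a binding site.

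Levels are given as log2 of background-corrected, quantile-normalized intensity, and ± after a mean is the SD of 3 arrays. Markers of the sorted populations followed their labels in part. Of 4 tested CD4 SP markers, 1 (Cd40lg) was higher in CD4 SP than in DP cells and 2 (Cd4 and Cd40lg) were higher than in CD8 SP cells, in both genotypes. Of 6 tested CD8 SP markers, 2 in cKO (Nkg7 and Itgae) and 3 in wt (Nkg7, Itgae and Eomes) were higher in CD8 SP than in DP cells, while Prf1 was lower in cKO CD8 SP cells. Itgae exceeded its wt DP level in wt CD4 SP cells too, by 2.37 ± 0.25 (adjusted p = 8.77e-06, limma). Cd40lg, the CD4 helper costimulator, was detected in the CD4 SP groups alone, with means of 6.31 in cKO and 6.63 in wt. Nkg7, a cytotoxic granule gene, was detected in the CD8 SP groups alone (8.18 in cKO and 8.32 in wt). Rag1, the recombinase of DP cells, was not confined to DP. It averaged 7.18 in cKO and 7.24 in wt CD4 SP, 9.97 in cKO and 9.85 in wt CD8 SP, and 11.7 in cKO and 11.88 in wt DP. The Cd8a probe was detected on no CD8 SP array, while the brightest Cd8b1 probe averaged 11.02 in cKO and 10.91 in wt CD8 SP. The brightest of 3 Wls probes averaged 6.58 in cKO and 6.46 in wt CD4 SP, 6.31 in cKO and 6.79 in wt CD8 SP, and 6.80 in cKO and 5.89 in wt DP cells. Earlier results of these data had set the 3 cKO arrays of BeadChip 3 apart, and cKO results whose call changes without them are given both ways.

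Between populations of the same genotype, each tested gene passed the threshold (adjusted p under 0.05, limma with Benjamini-Hochberg adjustment over all 26676 tested probes) in at least 1 comparison. Ccr7 was higher and Cxcr4 lower in CD4 SP than in DP cells in both genotypes. Ccr7 was also higher in CD8 SP than in DP cells in both. Ccr4 was higher, and Cxcr4 lower, in CD4 SP than in CD8 SP cells in both. Ccr9 was lower in wt CD8 SP than in wt DP cells. In bulk RNA, fewer cells of a type and less RNA per cell cannot be told apart.

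As counts, 2 of 5 tested members were called between cKO CD4 SP and cKO DP, where 5.14% of all 13894 genes were called, and 3 of 5 between wt CD4 SP and wt DP (6.19% of all genes). Between CD8 SP and DP cells the count was 2 of 5 in cKO (6.88% of all genes) and 2 of 5 in wt (7.73%). Between CD4 SP and CD8 SP cells it was 2 of 5 in cKO (4.06% of all genes) and 2 of 5 in wt (3.56%). These counts are from the fit without a BeadChip block. With the block, 4 of 5 members were called in wt, both for CD4 SP and for CD8 SP against DP cells. Over all tested probes the calls went from 1608 to 1666 and from 2231 to 2365. Call rates in so short a list are coarse.

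The 3 arrays of 1 group lay wholly to one side of the other's more often than the threshold was passed. Between CD4 SP and DP cells this held for Ccr7 and Klf2 (SP higher) and for Ccr9 and Cxcr4 (SP lower) in both genotypes. Over all genes it held upward for 10.9% in cKO and 13% in wt, and downward for 9.72% in cKO and 10.6% in wt. Between CD8 SP and DP cells it held for the same 4 genes, and for Ccr4 (SP lower) in wt. Over all genes the share was 12.7% in cKO and 16.9% in wt upward, and 10.2% in cKO and 11.5% in wt downward. CD4 SP arrays lay above CD8 SP arrays for Ccr7 and Ccr4 in both genotypes and for Ccr9 and Klf2 in wt, and below them for Cxcr4 in both. The shares of all genes were 9.03% in cKO and 10.6% in wt upward, and 10.7% in cKO and 12.2% in wt downward.

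**Figure D1:**
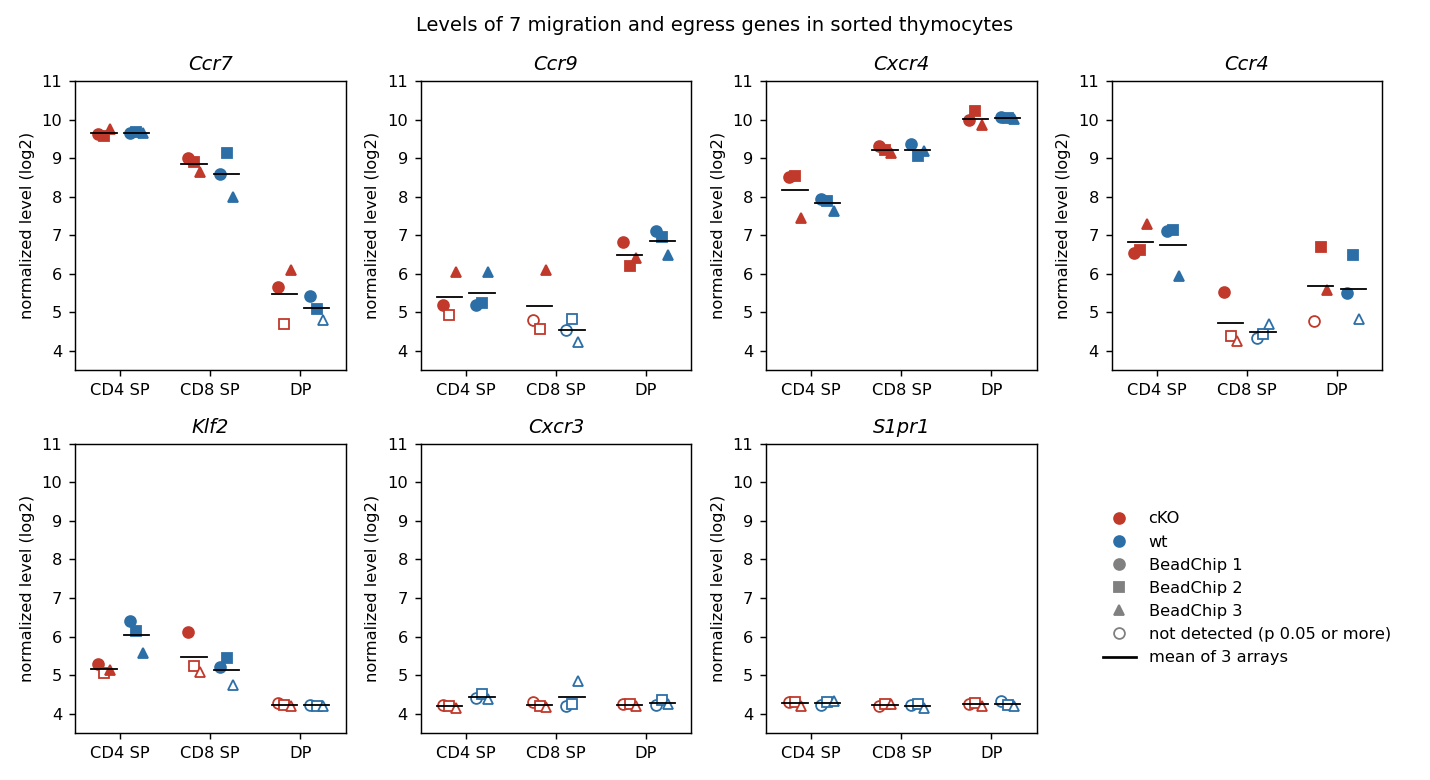
Level of each of the 7 genes on every array (y axis, log2 of normalized intensity) in CD4 SP, CD8 SP and DP thymocytes, with cKO (red) left of wt (blue), a symbol for each of 3 BeadChips, open symbols for arrays where the probe was not detected and a line at the mean. Ccr7 is high in both SP populations, Cxcr4 is highest in DP cells, and Cxcr3 and S1pr1 lie at the array background throughout.

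Ccr7 encodes the receptor for CCL19 and CCL21, the chemokines that draw selected thymocytes into the medulla. Its level was 9.63, 9.57 and 9.76 on the 3 cKO CD4 SP arrays and 9.64, 9.69 and 9.65 on the 3 wt CD4 SP arrays. The CD8 SP levels were 9, 8.90 and 8.63 in cKO and 8.60, 9.14 and 8 in wt. In DP cells it was 5.67, 4.69 and 6.09 in cKO and 5.42, 5.10 and 4.81 in wt, with 2 of 3 arrays detected in each genotype. Every SP array lay above every DP array. The SD was 0.03 in wt CD4 SP and 0.57 in wt CD8 SP, so the gene varied more among the CD8 SP arrays.

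The difference of cKO CD4 SP from cKO DP was 4.17 ± 0.33 (standard error, adjusted p = 3.39e-07 in limma), or 18-fold, and that of wt CD4 SP from wt DP was 4.55 ± 0.33 (adjusted p = 1.13e-07), or 23.4-fold. For CD8 SP cells it was 3.36 ± 0.33 in cKO (adjusted p = 8.34e-06), or 10.3-fold, and 3.47 ± 0.33 in wt (adjusted p = 6.37e-06), or 11.1-fold. The sign was the same on all 3 BeadChips in each of the 4. All 4 kept their call under each of 32 alternative settings, though the size rests on the background correction: without it, or in the authors' normalized values, the wt CD4 SP difference came down to 2.17 at the lowest and the wt CD8 SP one to 1.39.

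Ccr7 did not pass the threshold between the SP populations. CD4 SP arrays lay above CD8 SP arrays without overlap in both genotypes, by 0.81 ± 0.33 in cKO (adjusted p = 0.234, limma) and by 1.08 ± 0.33 in wt (adjusted p = 0.0914, limma).

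Cxcr4, the receptor for CXCL12, holds immature thymocytes in the cortex and supports their survival and proliferation at β-selection. It was detected on all 18 arrays. In CD4 SP cells its level was 8.51, 8.53 and 7.46 in cKO and 7.95, 7.90 and 7.64 in wt. Levels in CD8 SP cells were 9.31, 9.20 and 9.13 in cKO and 9.37, 9.05 and 9.18 in wt. In DP cells it was 9.99, 10.22 and 9.87 in cKO and 10.08, 10.05 and 10.01 in wt. The 3 populations formed separate bands with no overlap, CD4 SP lowest and DP highest, and within each band the genotypes overlapped.

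Cxcr4 was lower in cKO CD4 SP than in cKO DP cells by a log2 difference of -1.86 ± 0.26 (adjusted p = 0.000237, limma), a 3.63-fold difference, and lower in wt CD4 SP than in wt DP cells by -2.21 ± 0.26 (adjusted p = 3.81e-05), a 4.64-fold difference. Between CD4 SP and CD8 SP cells the difference was -1.05 ± 0.26 in cKO (adjusted p = 0.0331) and -1.37 ± 0.26 in wt (adjusted p = 0.00661). The cKO value rests on single arrays: leaving out the third cKO CD4 SP array, at 7.46, gave -0.69 with adjusted p = 0.143, leaving out all 3 cKO arrays of BeadChip 3 gave -0.73 with adjusted p = 0.232, and leaving out any 1 of the 3 cKO CD8 SP arrays also ended the call (adjusted p between 0.072 and 0.0933).

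The CD8 SP minus DP difference of Cxcr4 was -0.81 ± 0.26 in cKO (adjusted p = 0.0794, limma) and -0.85 ± 0.26 in wt (adjusted p = 0.0579, limma), and neither passed the threshold. With BeadChip as a block the wt difference passed it (adjusted p = 0.0432).

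DP markers moved with Cxcr4 across the populations only in part. Between CD4 SP and CD8 SP cells 3 of 8 (Rag1, Dntt and Cd8b1) were lower in CD4 SP, like Cxcr4, in both genotypes. Cd4 was higher in CD4 SP than in CD8 SP cells in both. Cd4 and Cd8b1 encode coreceptors that define the sorted populations. Their calls between populations therefore follow the sort and carry no information on Cxcr4. Ptcra and Cd8a were called in no comparison of populations. Of 8 DP marker genes on the array, 5 (Rag1, Rag2, Dntt, Cd8b1 and Arpp21) were lower in CD4 SP than in DP cells and 4 (Rag1, Rag2, Cd4 and Arpp21) were lower in CD8 SP than in DP cells, in both genotypes. The log2 levels of the 8 summed to 46.8 to 49.3 in cKO and 45.8 to 51.8 in wt CD4 SP arrays, to 56.6 to 58.6 in cKO and 56.7 to 58.5 in wt CD8 SP arrays, and to 66.1 to 69.1 in cKO and 68 to 71.2 in wt DP arrays. Rag2 was detected on no SP array, while Dntt, which adds bases at receptor junctions, averaged 8.73 in cKO and 8.60 in wt CD8 SP cells, against 9.52 in cKO and 9.73 in wt DP cells. The part of these markers in the Cxcr4 levels was not tested.

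**Figure D2:**
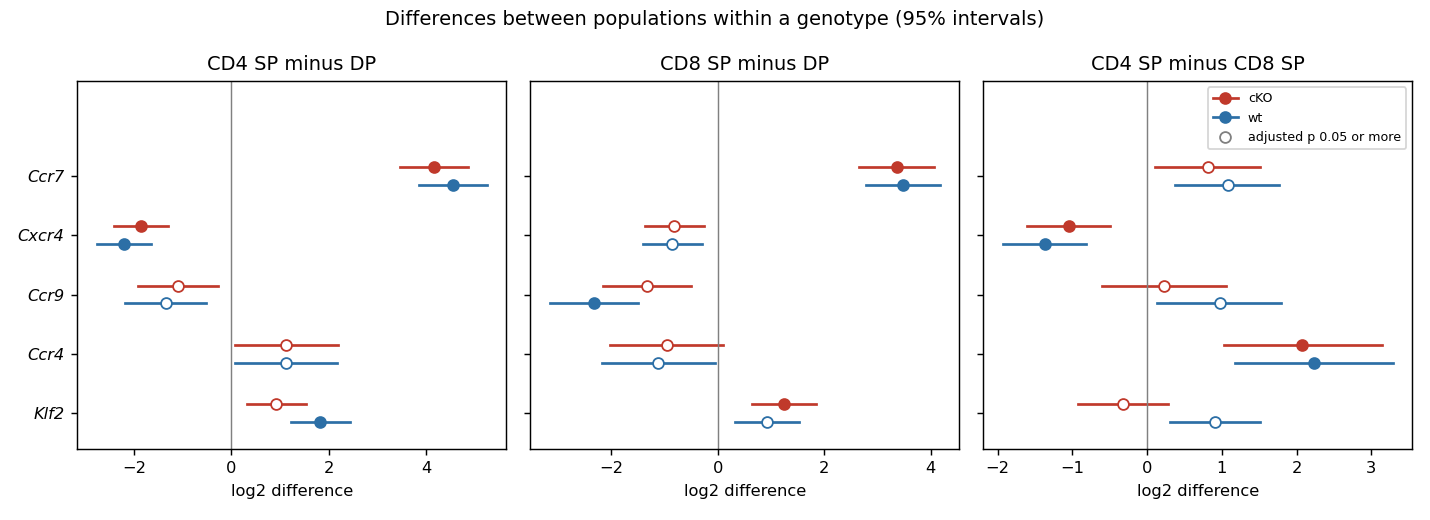
Log2 differences between populations (x axis) for the 5 tested genes, in cKO (red, upper) and wt (blue, lower), with 95% intervals and open circles where the adjusted p was 0.05 or more. Ccr7 lies at 3.36 to 4.55 above DP in all 4 SP comparisons, and Cxcr4 lies below 0 in all 6 comparisons.

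Ccr9, the receptor for the chemokine CCL25, had the other DP-high pattern, at levels nearer the background. In DP cells it was detected on all 6 arrays, in CD4 SP cells on 2 of 3 cKO and 3 of 3 wt arrays, and in CD8 SP cells on 1 of 3 cKO arrays and no wt array. Its level was 5.20, 4.94 and 6.04 in cKO and 5.20, 5.24 and 6.06 in wt CD4 SP cells. CD8 SP arrays gave 4.81, 4.58 and 6.11 in cKO and 4.53, 4.83 and 4.24 in wt. In DP cells it was 6.83, 6.20 and 6.42 in cKO and 7.10, 6.96 and 6.50 in wt. Every DP array lay above every SP array. The third BeadChip carried the highest SP value in cKO CD4 SP, wt CD4 SP and cKO CD8 SP cells, and the lowest in wt CD8 SP cells. These are background-corrected levels. Raw Ccr9 intensity averaged 238, 237 and 257 in cKO DP, CD4 SP and CD8 SP cells, and 247, 192 and 197 in wt. Median raw intensity averaged 181.6, 220.1 and 253.0 in the same cKO arrays and 169.0, 172.8 and 221.1 in wt. With that median as a covariate, adjusted p between CD8 SP and DP cells was 0.383 in cKO and 0.0159 in wt (limma). The part of the background was not tested.

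Ccr9 was lower in wt CD8 SP than in wt DP cells, with a log2 difference of -2.32 ± 0.39 (adjusted p = 0.00133, limma). Because no wt CD8 SP array detected the probe, the fold of the means is given only as a bound, at least 3.85-fold. Such bounds are given where a group had no detected array. Its arrays were counted at their own detection floor, or at the measured value where that was higher. They were set against the other group's mean, which can include undetected arrays. The bounds leave out the spread between arrays, and the 95% interval of the fitted Ccr9 difference was -3.15 to -1.49. The bounds hold for background-corrected levels: in the authors' normalized values the Ccr9 difference was -0.65 (adjusted p = 0.000236, limma). In cKO the CD8 SP difference was -1.32 ± 0.39 (adjusted p = 0.052, limma), and without the third array of that group, at 6.11, it was -1.79 with adjusted p = 0.0076. In CD4 SP cells the differences from DP were -1.09 ± 0.39 in cKO (adjusted p = 0.153, limma) and -1.35 ± 0.39 in wt (adjusted p = 0.0501, limma). With BeadChip as a block the wt CD4 SP difference passed the threshold, at adjusted p = 0.0494.

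Between the SP populations Cxcr4 was called and Ccr9 was not. Cxcr4 was lower in CD4 SP than in CD8 SP cells. The fitted Ccr9 difference, CD4 SP minus CD8 SP, was 0.23 ± 0.39 in cKO, where the arrays overlapped, and 0.97 ± 0.39 in wt. Its adjusted p was 0.884 in cKO and 0.227 in wt (limma), so no order of the SP populations is shown for Ccr9. The CD8 SP arrays held Rag1 at 9.80 or more together with Ccr9 below detection on 5 of 6.

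**Figure D3:**
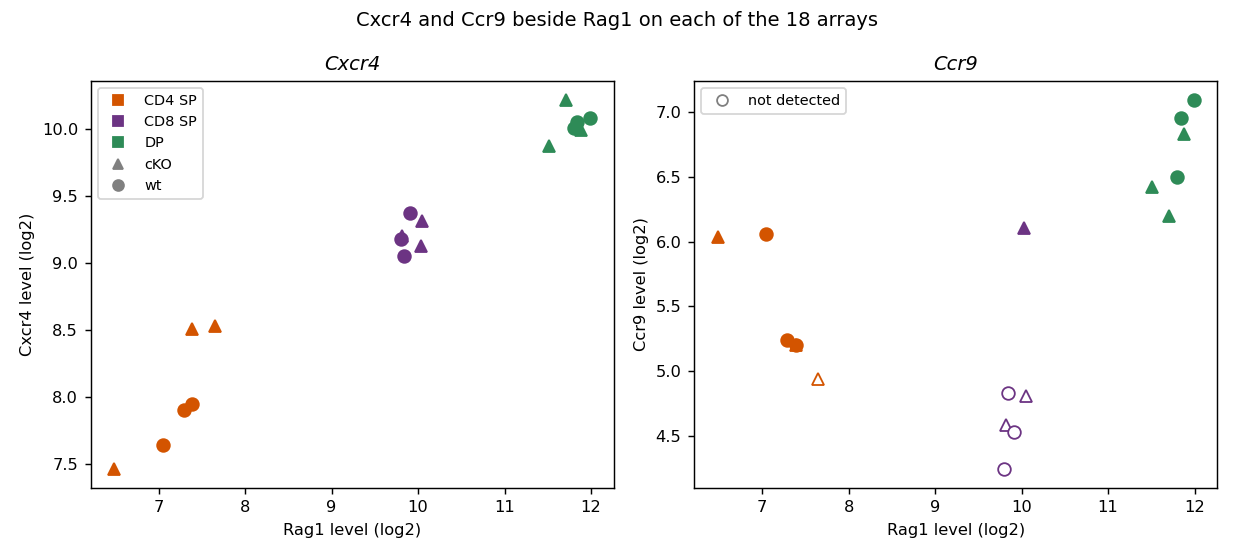
Level of Cxcr4 (left) and Ccr9 (right) against the level of Rag1 on each of 18 arrays (all axes log2 of normalized intensity), with colour for population, triangles for cKO, circles for wt and open symbols where the receptor was not detected. Cxcr4 follows the order of Rag1 over the 3 populations, while Ccr9 is not detected on 5 of 6 CD8 SP arrays, where Rag1 lies between 9.8 and 10.05.

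Ccr4, the receptor for CCL17 and CCL22, marks newly selected thymocytes and, in the periphery, helper and regulatory T cells. It was detected on all 6 CD4 SP arrays. Its level there was 6.53, 6.63 and 7.29 in cKO and 7.12, 7.14 and 5.95 in wt. On CD8 SP arrays it was 5.54, 4.40 and 4.26 in cKO, with only the first array detected, and 4.34, 4.45 and 4.71 in wt, with none detected. In DP cells it was 4.78, 6.70 and 5.57 in cKO and 5.51, 6.49 and 4.84 in wt, a spread that overlapped CD4 SP cells in both genotypes. The second BeadChip gave the highest DP value in each genotype.

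Ccr4 was higher in cKO CD4 SP than in cKO CD8 SP cells by 2.08 ± 0.50 (adjusted p = 0.0247, limma), with no fold given since 2 of 3 cKO CD8 SP arrays were below detection, while in wt the same difference was 2.24 ± 0.50 (adjusted p = 0.0183, limma), at least 3.55-fold. The 95% interval of the fitted wt fold, 2.26 to 9.8, reached below that bound. In the authors' normalized values both differences were 0.63. No CD4 SP array overlapped a CD8 SP array of its genotype. The wt call was lost on leaving out the first or second array of either wt group (adjusted p between 0.0559 and 0.0842). The cKO call was lost on leaving out any 1 of the 3 cKO CD4 SP arrays or the cKO CD8 SP array of BeadChip 2 or BeadChip 3 (adjusted p between 0.0541 and 0.105), and it was 1.61 with adjusted p = 0.306 without the 3 cKO arrays of BeadChip 3. Against DP cells, Ccr4 was 1.13 ± 0.50 higher in cKO CD4 SP (adjusted p = 0.291) and 1.12 ± 0.50 higher in wt CD4 SP cells (adjusted p = 0.248), short of the threshold in limma.

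Of 6 regulatory T cell markers, all on the array, 4 were tested. Between CD4 SP and CD8 SP cells 1 was higher in cKO (Tnfrsf4) and 2 in wt (Tnfrsf4 and Tnfrsf18). Tnfrsf4 (OX40) averaged 7.33 in cKO and 7.46 in wt CD4 SP cells and was detected on no other array. The log2 levels of the 6 summed to 34.3 to 36.6 in cKO and 37.2 to 39.3 in wt CD4 SP arrays, to 32.2 to 32.7 in cKO and 32.7 to 33.7 in wt CD8 SP arrays, and to 30.1 to 31.4 in cKO and 29.3 to 33.9 in wt DP arrays. Il2ra was detected on no array, and the Foxp3 probe was detected in every group with means between 7.36 and 8.21 and did not pass the threshold between CD4 SP and CD8 SP cells in either genotype. It was higher in wt CD8 SP than in wt DP cells, by 0.84 ± 0.25 (adjusted p = 0.0436, limma), a comparison in which Ccr4 differed by -1.11 ± 0.50 (adjusted p = 0.197, limma). The part of these markers in the Ccr4 levels was not tested.

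Cxcr3 and S1pr1 gave no measurable level. Cxcr3 lay between 4.15 and 4.85 on the 18 arrays, with a lowest detection p of 0.159. S1pr1, the receptor through which mature SP cells follow sphingosine 1-phosphate out of the thymus, lay between 4.15 and 4.34, with a lowest detection p of 0.898. The median array placed these probes at the 9.16th percentile (Cxcr3) and the 9.87th percentile (S1pr1) of all probes. Both are therefore below what these probes could detect in every population, and no difference is given for either.

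Klf2, a zinc finger factor that switches on S1pr1, was detected on SP arrays only. Its level was 5.30, 5.05 and 5.12 in cKO and 6.40, 6.15 and 5.58 in wt CD4 SP cells. In CD8 SP cells it was 6.11, 5.23 and 5.09 in cKO and 5.22, 5.45 and 4.74 in wt. In DP cells it was 4.27, 4.22 and 4.21 in cKO and 4.23, 4.21 and 4.20 in wt, and all 6 arrays were undetected. Every SP array lay above every DP array, but detection among SP arrays was partial, with 2 of 3 in cKO and 3 of 3 in wt CD4 SP and 1 of 3 in cKO and 2 of 3 in wt CD8 SP.

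In wt mice Klf2 was higher in CD4 SP than in DP cells by 1.83 ± 0.29 (adjusted p = 0.000505, limma), at least 2.3-fold. It was higher in cKO CD8 SP than in cKO DP cells by 1.25 ± 0.29 (adjusted p = 0.0116, limma), at least 1.52-fold, a call that rests on the first cKO CD8 SP array, since without it the difference was 0.93 with adjusted p = 0.0641. The other SP groups lay above DP cells without passing the threshold, cKO CD4 SP at least 1.22-fold (fitted difference 0.92 ± 0.29, adjusted p = 0.0847, limma) and wt CD8 SP at least 1.23-fold (fitted difference 0.92 ± 0.29, adjusted p = 0.056, limma). The wt CD8 SP difference passed it with BeadChip as a block (adjusted p = 0.035). The wt CD4 SP difference kept its call under all 32 alternatives, with sizes between 0.68 and 2.06.

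Between genotypes no member passed the threshold in any population, over the mean of the 3 populations or in the genotype by population interaction. The same was true of all 13894 genes (0% called in each). Of all 26676 tested probes 1 passed, in DP cells, and it has no gene symbol in the annotation used: it averaged 4.40 ± 0.12 in cKO, where no array detected it, and 6.24 ± 0.23 in wt (adjusted p = 0.00998, limma). At an unadjusted p under 0.05 in limma, Klf2 passed in CD4 SP cells, where 7.23% of all genes did, and in the interaction, where 4.22% did. No member passed at that level in CD8 SP cells (4.37% of all genes), in DP cells (7.74%) or over the mean (10.5%).

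Klf2 averaged 5.16 ± 0.13 in cKO and 6.04 ± 0.42 in wt CD4 SP cells. The 3 cKO arrays lay below the 3 wt arrays, which held for 5.55% of all genes. The difference was -0.89 ± 0.29 (95% interval -1.49 to -0.28, unadjusted p = 0.00647, adjusted p = 0.531, limma), and it was -1.10, -1.10 and -0.46 on the 3 BeadChips. The cKO minus wt difference of Klf2 in CD8 SP cells was 0.35 ± 0.29, with overlapping arrays. The interaction F-test gave an unadjusted p of 0.0197 and an adjusted p of 1.

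The array background moved with this comparison. The median raw intensity of an array averaged 220.1 in cKO and 172.8 in wt CD4 SP arrays, and the raw Klf2 intensity was not lower in cKO, at 232 on average against 212 in wt. Without background correction the Klf2 difference was -0.21, and in the authors' normalized values it was -0.17. With the median raw intensity as a covariate it was -0.94. Beyond these values the part of the background was not tested. Median raw intensity was also higher in cKO in the other populations, at 253.0 against 221.1 in wt CD8 SP and 181.6 against 169.0 in wt DP arrays.

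For the 4 tested receptors, the 95% interval of the genotype difference held 0 in each population. Ccr7 differed by 0.00 in CD4 SP (95% interval -0.70 to 0.69), by 0.26 in CD8 SP (-0.43 to 0.96) and by 0.38 in DP cells (-0.32 to 1.07). Cxcr4 differed by 0.34 in CD4 SP (-0.22 to 0.90), by 0.02 in CD8 SP (-0.54 to 0.57) and by -0.02 in DP cells (-0.57 to 0.54). Without the 3 cKO arrays of BeadChip 3 the Cxcr4 difference in CD4 SP cells was 0.69 (adjusted p = 0.321, limma). The intervals above leave room for a change of up to about a doubling in Ccr7, and less in Cxcr4.

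The dimmer receptors were less well bounded. Ccr9 differed by -0.11 in CD4 SP (-0.94 to 0.72), by 0.63 in CD8 SP (-0.20 to 1.46) and by -0.37 in DP cells (-1.20 to 0.46). The Ccr9 difference in CD8 SP cells was 1.87 on the third BeadChip, against 0.27 and -0.25 on the others, and 0.16 without the 3 cKO arrays of that BeadChip. Ccr4 differed by 0.08 in CD4 SP (-0.98 to 1.14), by 0.23 in CD8 SP (-0.83 to 1.29) and by 0.07 in DP cells (-0.99 to 1.13).

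**Figure D4:**
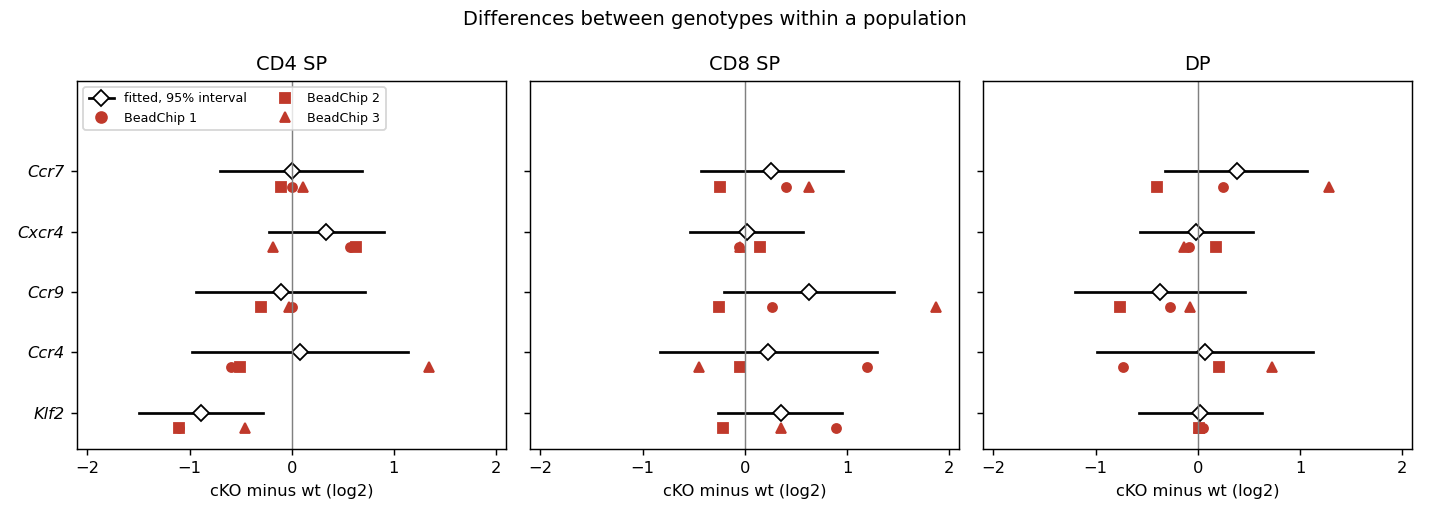
Difference of cKO minus wt (x axis, log2) for the 5 tested genes in CD4 SP, CD8 SP and DP thymocytes, with the fitted value and 95% interval (diamond and line) and the difference on each of 3 BeadChips (red symbols). Klf2 in CD4 SP cells is the one value whose interval, -1.49 to -0.28, leaves out 0, and no adjusted p was under 0.05.

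Other genes of the same pathways were counted in 6 lists. Over all genes, 5.14% in cKO and 6.19% in wt were called between CD4 SP and DP cells. The shares were 6.88% in cKO and 7.73% in wt between CD8 SP and DP cells, and 4.06% and 3.56% between CD4 SP and CD8 SP cells. Among other chemokine receptors, 10 of 19 were tested and 2 were higher in CD4 SP than in DP cells, Ccr8 and Gpr183, the oxysterol receptor EBI2. Ccr8 averaged 6.44 in cKO and 6.64 in wt CD4 SP cells and was detected on no CD8 SP or DP array. Against DP cells it was at least 2.96-fold higher in cKO and at least 3.48-fold higher in wt CD4 SP cells. Gpr183 averaged 6.25 in cKO and 6.84 in wt CD4 SP cells and was at least 2.6-fold and at least 4-fold higher than in DP cells of the same genotype. Both genes, like Ccr4, were also higher in CD4 SP than in CD8 SP cells in both genotypes. The median difference of the 10 between CD4 SP and DP cells was 0.44 in cKO and 0.54 in wt, beside 0.04 and 0.06 over all genes.

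Of 14 chemokines, 7 were tested and only Xcl1, the ligand of XCR1, passed. It was detected on no DP array. It was at least 2.37-fold higher in cKO CD4 SP and at least 2.72-fold higher in wt CD4 SP than in DP cells, and at least 6.89-fold higher in cKO CD8 SP and at least 11.6-fold higher in wt CD8 SP cells. Of 13 sphingosine 1-phosphate genes, 8 were tested and none passed in any comparison. In so short a list, the lack of a call cannot be set apart from the shares of all genes given above. The smallest adjusted p between wt CD4 SP and wt DP cells was that of Sgpl1, the lyase that degrades sphingosine 1-phosphate (8.03 against 7.14, adjusted p = 0.0965). The receptor S1pr2 averaged 9.01 in wt CD4 SP and 7.99 in wt DP cells (adjusted p = 0.204).

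Among FOXO and KLF factors, 9 of 14 were tested. Foxo1, which induces Klf2, Ccr7 and Il7r in T cells, was higher in CD4 SP than in DP cells, by 2.40 ± 0.45 in cKO (adjusted p = 0.00291) and 2.16 ± 0.45 in wt (adjusted p = 0.00589). Klf3, a repressor that binds the same CACCC letters, was lower in CD4 SP than in DP cells, by -2.35 ± 0.40 in cKO and -2.15 ± 0.40 in wt (adjusted p = 0.0012 and 0.00229, limma). In CD8 SP cells Klf3, Klf7 and Klf13 were lower than in DP cells in both genotypes, and no FOXO or KLF gene of the list was called higher. Foxo1 had the same direction there as in CD4 SP cells, short of the threshold. Its CD8 SP minus DP difference was 1.37 ± 0.45 in cKO (adjusted p = 0.0827, limma) and 1.12 ± 0.45 in wt (adjusted p = 0.143, limma).

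Of 20 adhesion and maturation surface genes, 16 were tested. In CD4 SP relative to DP cells 5 were higher in both genotypes: Itgb7, Il7r, Slfn1, H2-K1 and H2-D1. The same 5 were higher in CD8 SP than in DP cells in both genotypes. Itgb7, the β7 integrin chain, averaged 9.30 in cKO and 9.36 in wt CD4 SP cells, 9.17 in cKO and 9.05 in wt CD8 SP cells, and 4.45 in cKO and 4.81 in wt DP cells. Plxnd1, a semaphorin receptor that dampens CCR9 signalling in mouse thymocytes, was lower in CD4 SP than in DP cells by -2.29 ± 0.33 in cKO and -2.50 ± 0.33 in wt. In wt CD8 SP cells Plxnd1 was detected on no array and was at least 11.5-fold lower than in wt DP cells. The other lower calls of the list, named after their values were seen, were Itga6, an integrin chain, and Cd24a, a surface protein of immature thymocytes. Itga6 was lower in CD8 SP than in DP cells (-1.43 ± 0.26 in cKO and -1.05 ± 0.26 in wt). Cd24a was lower than in wt DP cells in wt CD4 SP (-1.38 ± 0.27, at least 1.8-fold) and wt CD8 SP cells (-1.06 ± 0.27). Its probe was near the background, with a mean of 5.74 in wt DP cells. It was detected on 0 of 3 wt CD4 SP, 1 of 3 wt CD8 SP and 0 of 3 cKO DP arrays.

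G protein signalling and migration genes gave 26 tested of 30. In CD4 SP relative to DP cells 4 were higher in each genotype, Gng2, Arrb2 and Rgs10 in both, with Myo1g in cKO and Arhgef1 in wt, though 1 of 3 other Arhgef1 probes pointed the other way. Gng2, a G protein γ subunit, averaged 9.12 in cKO and 9.15 in wt CD4 SP cells, against 4.65 in cKO and 5.52 in wt DP cells. Arrb2, which desensitizes chemokine receptors, averaged 7.63 in cKO and 8.36 in wt CD4 SP cells, against 5.19 in cKO and 5.60 in wt DP cells. In CD8 SP relative to DP cells 3 were higher and 1 lower in cKO, and 2 were higher and 2 lower in wt. Gng2 and Arrb2 were higher there in both genotypes, Gng2 by 3.20 ± 0.46 in cKO and 2.95 ± 0.46 in wt and Arrb2 by 2.39 ± 0.55 in cKO and 2.49 ± 0.55 in wt, and Myo1g was higher in cKO. Dock2, the Rac activator downstream of chemokine receptors, was lower in CD8 SP than in DP cells in both genotypes (6.56 against 8.18 in cKO and 6.76 against 8.20 in wt). Rhoh was lower in wt CD8 SP than in wt DP cells, by -1.85 ± 0.43 (adjusted p = 0.0121, limma), and was not called in cKO (-1.08 ± 0.43, adjusted p = 0.168, limma). The median difference between CD4 SP and DP cells was 0.12 in cKO and 0.29 in wt for the tested chemokines, 0.27 and 0.19 for sphingosine 1-phosphate genes, -0.37 and 0.05 for FOXO and KLF factors, 0.65 and 0.70 for adhesion and maturation genes, and 0.31 and 0.35 for G protein and migration genes. Between CD8 SP and DP cells it was 0.04 in cKO and 0.17 in wt for other chemokine receptors, 0.35 and 0.43 for chemokines, 0.19 and 0.34 for sphingosine 1-phosphate genes, -0.57 and -0.67 for FOXO and KLF factors, 0.04 and 0.10 for adhesion and maturation genes, and -0.08 and 0.12 for G protein and migration genes, beside 0.05 and 0.14 over all genes. No gene of the 6 lists passed the threshold between genotypes, in any population or over their mean.

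**Figure D5:**
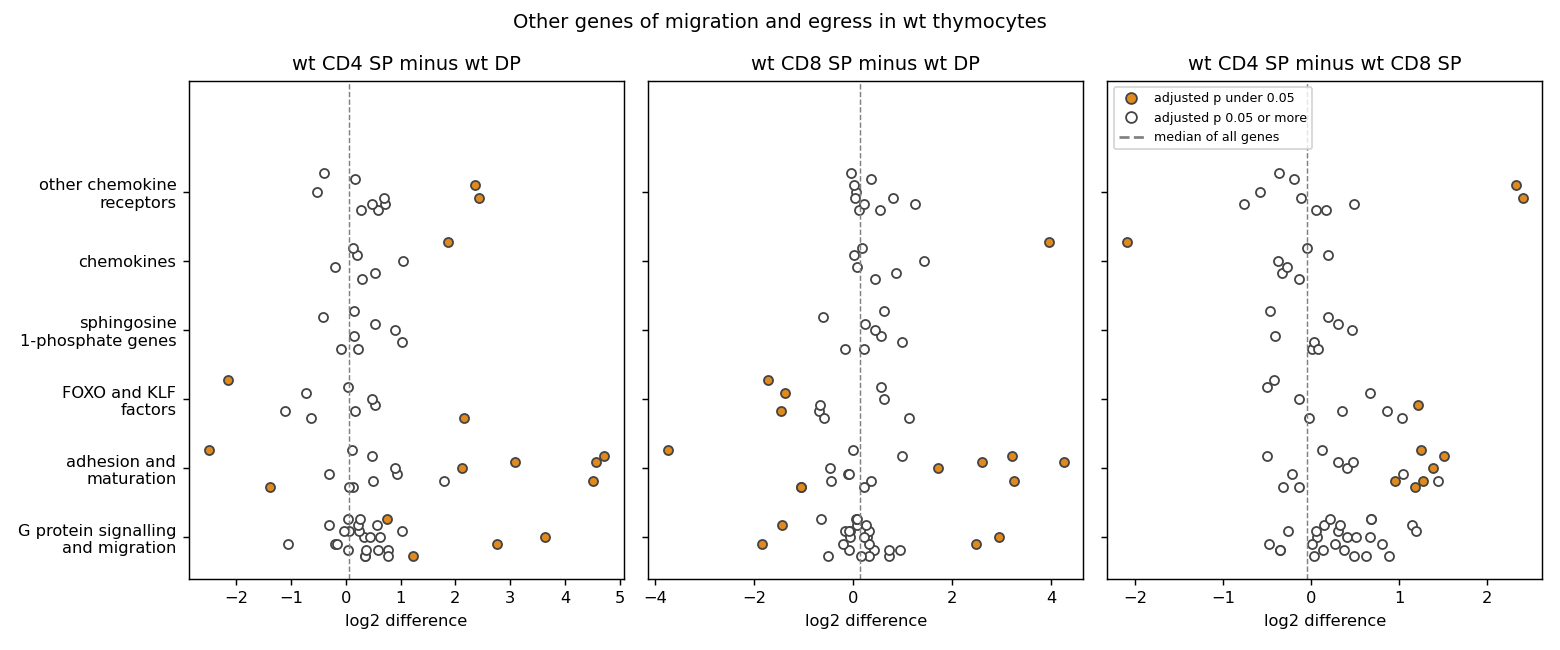
Log2 differences (x axis) of the tested genes in 6 lists of migration and egress genes, in wt CD4 SP minus wt DP, wt CD8 SP minus wt DP and wt CD4 SP minus wt CD8 SP, filled where the adjusted p was under 0.05, with the median of all genes as a dashed line. Adhesion and maturation genes hold 5 filled points of 16 above 0 in each SP minus DP panel. The 8 sphingosine 1-phosphate genes hold none, in a list too short to set that apart from the share of all genes.

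The genes most like each member over the 18 arrays were found by Pearson correlation of log2 levels, as a description. The arrays share 3 BeadChips and fall into 3 populations, so a high value mostly restates the population means, and correlations within a population, over 6 arrays each, are given beside it for the first. Nearest to Ccr7 were Tmsb10 (0.981), Ifi27l2a, Rasa3, Slfn1 and Shisa5, and within CD4 SP, CD8 SP and DP arrays Tmsb10 had 0.29, 0.93 and 0.44. Nearest to Cxcr4 were E2f2 (0.98), Rag1, Marcks, Tubb2b and Lbr, and E2f2, a cell cycle factor, had 0.89, 0.96 and 0.68 within populations. Nearest to Ccr9 were Ankrd50 (0.94), Snx29, Atp10a, Btg2 and Camk4, with 0.52, 0.96 and 0.93 for Ankrd50. Nearest to Ccr4 were Tssc6 (0.867), Stk4, Zfp36, Bcl2l11 and Cd3d, with 0.65, 0.66 and 0.66 for Tssc6. Nearest to Klf2 were Rasa3 (0.881), Vim, Nlrc5, H2-Q5 and Il27ra, with 0.62, 0.68 and -0.29 for Rasa3. Rasa3, an inhibitor of RAS and RAP1, was among the 5 for both Ccr7 and Klf2.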

How the data were processed

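Per the file headers, the authors deposited a bead file with a mean intensity per probe and array, not normalized, and a detection p-value beside it. A second deposited table held normalized intensity values, and the sources used here do not name the authors' method. Medians of its arrays were 192 to 202.2, each array correlated with its bead intensities at 0.99565 or more (log2), and it entered as an alternative. The neqc function of limma 3.58.1 (R 4.3.3, offset 16) subtracted background, estimated through the detection p-values, and gave quantile-normalized log2 levels. Array medians ranged from 132.6 to 273.4, and 41.5% to 46.0% of probes were detected. The number of arrays limits the precision. Probes with detection p under 0.05 on at least 3 arrays were tested (26676), and 13894 genes had 1 probe each, the brightest. Symbols came from Entrez IDs (28620 probes), accessions (2637) or the file (4527).

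One linear model held a mean for each of 6 groups over 18 arrays, with 12 residual degrees of freedom. Moderated t-tests and an F-test for the interaction were adjusted by Benjamini-Hochberg. The code was tested on simulated data. Per the file headers, label numbers 1 to 3 are 3 BeadChips, each with all 6 groups. Residuals of same-numbered arrays correlated at -0.149 to 0.314 (median 0.0463, 45 pairs), and 17 of 18 arrays matched best with an array of their own number. Figures used matplotlib 3.10.9. Motifs were searched in RefSeq promoter windows (GRCm38.p6). All 7 members and the 5 nearest patterns are named. The plan was to name at most 5 genes of a list, those of smallest adjusted p in the comparison described. Further called genes of the adhesion and G protein lists, and genes called only with the BeadChip block, were named as well. Members and lists were chosen with earlier results of these data known.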

Additional observations from a re-analysis of the deposited data

How the results depend on the processing

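Results were recomputed under 14 settings (2 of the genotype comparisons under 13) and on leaving out each of 18 arrays. No member called in the main fit or an alternative changed direction. The setting that picked probes by detection p changed nothing, as each member had 1 probe. Using only the groups compared was not possible for the mean over populations and the interaction.

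The count of called members was 3 between wt CD4 SP and wt DP, but 4 with some settings, BeadChip as a block among them, and 3 to 4 on leaving out an array. Between wt CD8 SP and wt DP it was 2, but 4 with the authors' values, without background correction, with BeadChip as a block (the paired analysis), with a random block and with array weights, and 2 to 3 on leaving out an array. Between wt CD4 SP and wt CD8 SP it was 2, but 1 with median raw intensity as a covariate (Ccr4 lost), and 1 to 3 on leaving out an array. In cKO CD4 SP against cKO DP it was 2, but 4 with array weights, and 2 to 3 on leaving out an array. In cKO CD8 SP against cKO DP it was 2, but 1 with the covariate and 1 with only the groups compared (Klf2 lost in both, and with offset 50), and 1 to 4 on leaving out an array. In cKO CD4 SP against cKO CD8 SP it was 2, but 1 with no filter (Ccr4 lost), 1 with the covariate (Cxcr4 lost), 0 with only the groups compared (4 residual degrees of freedom) and 0 without the 3 cKO arrays of BeadChip 3, and 0 to 2 on leaving out an array. The cause was not tested. Genotype counts and the interaction stayed at 0 in every run.

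Without the 3 cKO arrays of BeadChip 3, Ccr9 passed the threshold in cKO CD4 SP (-1.45, adjusted p = 0.0478) and cKO CD8 SP against DP (-1.83, adjusted p = 0.0121, limma), and so did wt Ccr9 in CD4 SP (adjusted p = 0.0134) and wt Cxcr4 in CD8 SP against DP (adjusted p = 0.023), whose own arrays were unchanged. Median scaling moved the median of all genes in wt CD8 SP minus wt DP to 0.28, against 0.14 with quantile normalization. Of list genes not called, Cd69 in CD4 SP against DP passed with the BeadChip block (adjusted p = 0.0469 in cKO and 0.0263 in wt), as did Itgb2 in cKO (0.0305). In wt CD4 SP against CD8 SP, Cd69 (0.025) and Rassf5 (0.0484) also passed. Signal close to background limits Ccr9, Ccr4 and Klf2, and Cxcr3 and S1pr1 could not be measured.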
